A study of Mus musculus with 11 samples.

Results

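The genes of antigen presentation and the mouse major histocompatibility complex (MHC, named H2 in mice) made up 60 of the 55401 genes in the count table. They were the 45 rows whose symbol begins with H2- and 15 rows chosen by symbol, namely B2m, Cd74, Tap1, Tap2, Tapbp, Tapbpl, Nlrc5, Ciita, Psmb8, Psmb9, Psmb10, Psme1, Psme2, Erap1 and Calhm6. By symbol, 33 were counted as class I, B2m and several pseudogenes included. Another 11 served the making, carrying or loading of class I peptides, and 12 were counted as class II. The other 4 were counted apart, namely Calhm6, H2-Ke6 and the pseudogenes H2-Pa and H2-Pb. On the GRCm38 build of the gencode M21 annotation, 50 of the 60 lay on chromosome 17.

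Class I molecules are found on nearly all nucleated cells. A heavy chain pairs with beta-2 microglobulin, the product of B2m, and displays peptides that the proteasome cuts from cytosolic proteins and the transporter Tap1/Tap2 carries into the endoplasmic reticulum. Class II molecules are made mainly by professional antigen-presenting cells, which load them with peptides from endocytosed proteins with help from the invariant chain Cd74 and the H2-DM proteins. Interferon raises class I and its partners through factors such as Nlrc5, while Ciita is the master regulator of class II transcription. Recognition of class I on beta cells by cytotoxic T cells is a known part of autoimmune diabetes.

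RNA was measured by poly(A) RNA-seq in 11 libraries of islet cells that had been sorted by FACS from 4 mice. The mice were male, chow-fed C57BL6/J animals, 10 weeks old by the labels, and all carried RIP-Cre, STOP-tdTomato and Nnat-EGFP, so that Cre under the rat insulin promoter switched on tdTomato in beta cells while a transgene with the Nnat promoter drove EGFP. By their labels, 4 libraries held beta cells positive for NNAT, 4 held beta cells negative for it and 3 held islet cells other than beta cells. The replicate number was read as the mouse, since the study's methods took each replicate from an individual animal. Mouse 4 had no non-beta library. The non-beta fraction is a mixture and can hold any other cell of the islet preparation.

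Promoter sequences are shown for the genes whose levels differ most clearly in kind below: H2-K1, H2-D1 and B2m as the abundant class I chains, H2-Q2 as a class I gene whose level was not lower in beta cells, and H2-Aa and H2-Eb1 as class II genes. Each runs 5′ to 3′ from 250 bases before to 50 bases after the start of the gene in RefSeq on GRCm38.p6. Capitals mark matches, on either strand, to 4 motifs and to a pair. The motifs were GGGGA and TCCCC with any base between (kappaB-like), GAAANN followed by GAAA (like an interferon-stimulated response element), AGNNAC followed by NGATG (like the X box of class II promoters) and ATTGG (the Y box or inverted CCAAT box). The pair was a TGACG with 20 or 21 bases between it and an ATTGG, so it overlaps with the ATTGG matches.
H2-K1 (chr17:34000298-34000597, minus strand): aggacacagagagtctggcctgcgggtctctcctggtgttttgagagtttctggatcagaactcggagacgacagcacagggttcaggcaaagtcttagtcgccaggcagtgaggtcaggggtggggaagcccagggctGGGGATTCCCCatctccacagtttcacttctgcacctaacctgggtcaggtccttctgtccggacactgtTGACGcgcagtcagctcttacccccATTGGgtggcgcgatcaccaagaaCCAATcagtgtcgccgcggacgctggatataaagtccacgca
H2-D1 (chr17:35262844-35263143, plus strand): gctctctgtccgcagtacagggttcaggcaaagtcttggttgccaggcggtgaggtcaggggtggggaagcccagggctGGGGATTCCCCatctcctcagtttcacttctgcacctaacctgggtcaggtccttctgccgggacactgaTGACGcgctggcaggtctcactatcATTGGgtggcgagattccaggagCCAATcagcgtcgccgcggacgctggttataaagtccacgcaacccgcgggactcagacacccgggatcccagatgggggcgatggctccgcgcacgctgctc
B2m (chr2:122147437-122147736, plus strand): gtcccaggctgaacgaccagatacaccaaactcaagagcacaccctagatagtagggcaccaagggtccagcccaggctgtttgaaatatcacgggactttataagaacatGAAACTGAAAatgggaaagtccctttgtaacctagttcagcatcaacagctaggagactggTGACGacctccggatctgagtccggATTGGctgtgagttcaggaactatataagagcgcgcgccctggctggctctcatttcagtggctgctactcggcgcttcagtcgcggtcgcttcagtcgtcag
H2-Q2 (chr17:35342057-35342356, plus strand): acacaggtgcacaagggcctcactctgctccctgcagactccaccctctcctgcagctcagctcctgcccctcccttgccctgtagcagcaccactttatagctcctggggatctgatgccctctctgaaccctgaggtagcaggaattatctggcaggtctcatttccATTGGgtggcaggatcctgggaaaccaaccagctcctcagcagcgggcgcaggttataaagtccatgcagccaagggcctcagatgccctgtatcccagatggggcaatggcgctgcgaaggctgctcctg
H2-Aa (chr17:34287774-34288073, minus strand): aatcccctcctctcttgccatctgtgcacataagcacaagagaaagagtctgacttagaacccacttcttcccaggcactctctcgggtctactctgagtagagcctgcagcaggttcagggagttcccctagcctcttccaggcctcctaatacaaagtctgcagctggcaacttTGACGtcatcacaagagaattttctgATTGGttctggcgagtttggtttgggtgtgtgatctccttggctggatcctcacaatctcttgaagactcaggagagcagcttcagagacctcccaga
H2-Eb1 (chr17:34305617-34305916, plus strand): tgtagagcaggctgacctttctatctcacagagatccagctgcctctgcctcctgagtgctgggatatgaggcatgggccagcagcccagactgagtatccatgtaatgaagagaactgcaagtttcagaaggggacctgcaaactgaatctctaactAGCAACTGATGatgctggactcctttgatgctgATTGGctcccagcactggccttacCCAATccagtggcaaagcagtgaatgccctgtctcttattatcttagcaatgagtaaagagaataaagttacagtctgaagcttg
Among 32851 promoters of this length, the kappaB-like motif was found in 0.0487% and the paired TGACG and ATTGG, a spacing noticed in these sequences, in 0.164%. ATTGG alone was found in 37.4%, the interferon-like motif in 3.44% and the X box-like motif in 0.968%. RefSeq promoters were matched for 42 of the 60 members. Of these 42, 3 held the kappaB-like motif (H2-D1, H2-K1 and H2-Q6) and 5 held the pair (B2m, H2-Aa, H2-D1, H2-K1 and H2-M3). H2-Aa was the one class II gene with the pair, and in the H2-Q2 window neither it nor the kappaB-like motif was found. These matches describe the letters only.

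Levels are given as CPM, counts scaled to a common library size after TMM normalisation, and log2 fold changes with their standard errors come from edgeR's quasi-likelihood test with the mouse as a block. A gene was called when its Benjamini-Hochberg adjusted p over all 17424 tested genes was below 0.01 and its change was more than 2-fold. Of the 60 members, 44 passed the filter on low counts, and the 16 left out (14 class I genes, H2-Pa and H2-Pb) had between 0 and 54 counts summed over all libraries. Of the 44, 28 also passed in the 8 beta libraries on their own. The other 16 passed only with the non-beta libraries in the table, so for those that are high there a lower level in beta cells follows from the filter and is a description.

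Total counts ranged from 30420352 to 43238376 per library, and a floor of 3 counts was at most 0.0986 CPM in any of them. Nnat itself goes against the labels. In mice 1 to 4 it stood at 50.5, 46.4, 46.0 and 101 CPM where the label says NNAT-positive and at 74.8, 80.8, 66.5 and 153 CPM where it says NNAT-negative, so the first had the lower value in each mouse. It was at 12.8, 29.8 and 17.4 CPM in non-beta cells. The fractions are therefore called by their labels only, and a direction between them holds for the libraries so labelled. Markers of many cell types were read in the non-beta libraries. The 6 alpha cell markers had the highest sum, at 122863 to 171283 CPM there and 1586 to 4075 CPM in beta libraries. The 9 beta cell markers summed to 10541 to 26034 CPM in non-beta and 181641 to 427144 CPM in beta libraries. The 8 acinar markers summed to 16368 to 64638 CPM there and 15.1 to 2326 CPM in beta libraries, and the 8 fibroblast and pericyte markers to 3824 to 8666 against 0.0609 to 4.94 CPM. The 4 delta and PP cell markers were at 12.1 to 20.99% of their mean non-beta level in the labelled NNAT-positive and 4.49 to 8.73% in the labelled NNAT-negative libraries. The 7 ductal markers were at 403 to 634 CPM in non-beta and 297 to 405 CPM in beta libraries. Most of the beta sum was Krt7 and Krt18. Krt7 had means of 211 and 224 CPM in the labelled NNAT-positive and NNAT-negative fractions beside 113 CPM in non-beta cells. Krt18 had 113 and 117 beside 115 CPM. Krt19, Sox9, Spp1, Muc1 and Cftr had lower means in both beta fractions, as with Krt19 at 1.93 and 1.81 beside 28.6 CPM. The summed level of 6 pan-leukocyte markers was 269 to 646 CPM in non-beta libraries and 1.49 to 8.51 CPM in beta libraries, that of 7 dendritic cell markers 62.1 to 122 against 0 to 1.10 CPM, and that of 8 endothelial markers 2284 to 2627 against 5.16 to 13.8 CPM. The 12 macrophage markers summed to 603 to 1389 CPM against 50.1 to 83.1 CPM, of which C1qa alone made 44.2 to 74.7 CPM in beta libraries while C1qb stayed at or below 0.61 CPM. The part of these cells in the results was not tested, and in bulk samples fewer cells of a type cannot be told apart from less RNA per cell.

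Against non-beta cells, 24 of the 60 members were called lower and 0 higher in the libraries labelled NNAT-negative, where 17.1% of all tested genes were called lower and 6.18% higher. In the libraries labelled NNAT-positive, the counts were likewise 24 lower and 0 higher, where 15.5% of all tested genes were called lower and 6.13% higher. Both comparisons use the same 3 non-beta libraries. Of the 28 members that passed the filter in beta cells alone, 14 were called lower in each comparison. The share called lower among all genes that passed in beta cells alone was not computed, so this count is a description. Over the 44 tested members the median log2 fold change was -2.24 in the labelled NNAT-negative and -2.28 in the labelled NNAT-positive libraries, beside -0.13 and -0.06 over all tested genes. The medians by class also include the genes that passed the filter only with non-beta libraries, 7 of 19 in class I and 7 of 12 in class II. The median was -1.87 for the 19 tested class I genes, -1.34 for the 11 loading and proteasome genes and -8.82 for the 12 class II genes in the labelled NNAT-negative libraries (-8.08 for class II with genes at 0 counts set to their bounds). In the labelled NNAT-positive libraries the same medians were -1.09, -1.31 and -8.30 (-7.70 with bounds).

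Class I heavy chains were the most abundant members in beta cells. The gene of the classical heavy chain K, H2-K1 (ENSMUSG00000061232, chromosome 17, 33996017 to 34000347), was read at 528, 435 and 382 CPM in the non-beta libraries of mice 1 to 3. The libraries of mice 1 to 4 labelled NNAT-positive had 224, 322, 243 and 290 CPM, and those labelled NNAT-negative 216, 338, 234 and 279 CPM. The beta libraries all lay below the non-beta ones, with a log2 fold change of -0.81 ± 0.15 (adjusted p = 0.0014) in the labelled NNAT-negative and -0.79 ± 0.15 (adjusted p = 0.0017) in the labelled NNAT-positive fraction. This 1.75-fold and 1.72-fold difference stayed under the 2-fold limit of a call.

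H2-D1, which encodes the classical heavy chain D (ENSMUSG00000073411, chromosome 17, 35262730 to 35267499), was at 966, 485 and 695 CPM in non-beta cells. The labelled NNAT-positive libraries had 324, 254, 334 and 203 CPM and the labelled NNAT-negative ones 344, 230, 319 and 191 CPM. It was called lower in both, by -1.24 ± 0.12 on the log2 scale in the labelled NNAT-negative (adjusted p = 1.4e-05) and -1.19 ± 0.12 in the labelled NNAT-positive libraries (adjusted p = 2.2e-05). Without mouse 1 the second value was -0.998, just under the 2-fold limit. H2-K1 and H2-D1 together thus kept 40.4 to 49.6% of their mean non-beta level in the 8 beta libraries. Reads of H2-K1, H2-D1 and the Q and T genes can be shared between near-identical sequences, so the split among them is uncertain.

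B2m, whose product is the light chain that all class I heavy chains share (ENSMUSG00000060802, chromosome 2, 122147686 to 122153083), was called lower in both beta fractions. Non-beta libraries had 508, 250 and 297 CPM. The labelled NNAT-positive libraries had 39.4, 34.7, 28.3 and 15.6 CPM, and the labelled NNAT-negative ones 49.3, 26.0, 35.9 and 17.1 CPM. The groups were far apart, with a log2 fold change of -3.22 ± 0.15 (9.33-fold lower, adjusted p = 1.5e-07) in the labelled NNAT-negative and -3.31 ± 0.15 (9.90-fold lower, adjusted p = 1.6e-07) in the labelled NNAT-positive libraries. The order of the chains per length changed as well. Per kb of exon, B2m stood at 409 ± 160 CPM (SD, n = 3) in non-beta cells, above H2-D1 at 277 ± 93.4 and H2-K1 at 153 ± 25.2 CPM. In the labelled NNAT-negative libraries the order was H2-D1 at 105 ± 27.9, H2-K1 at 90.8 ± 18.5, H2-Q2 at 49.9 ± 11.1 and B2m at 37.3 ± 16.1 CPM per kb (SD, n = 4). H2-D1 and H2-K1 did not differ beyond their spread there, and with the length of the longest transcript they changed places. B2m over the sum of H2-K1 and H2-D1, each per kb, was 0.863 to 1.07 in non-beta libraries and 0.102 to 0.277 in beta libraries, so these ranges did not overlap.

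**Figure D1:**
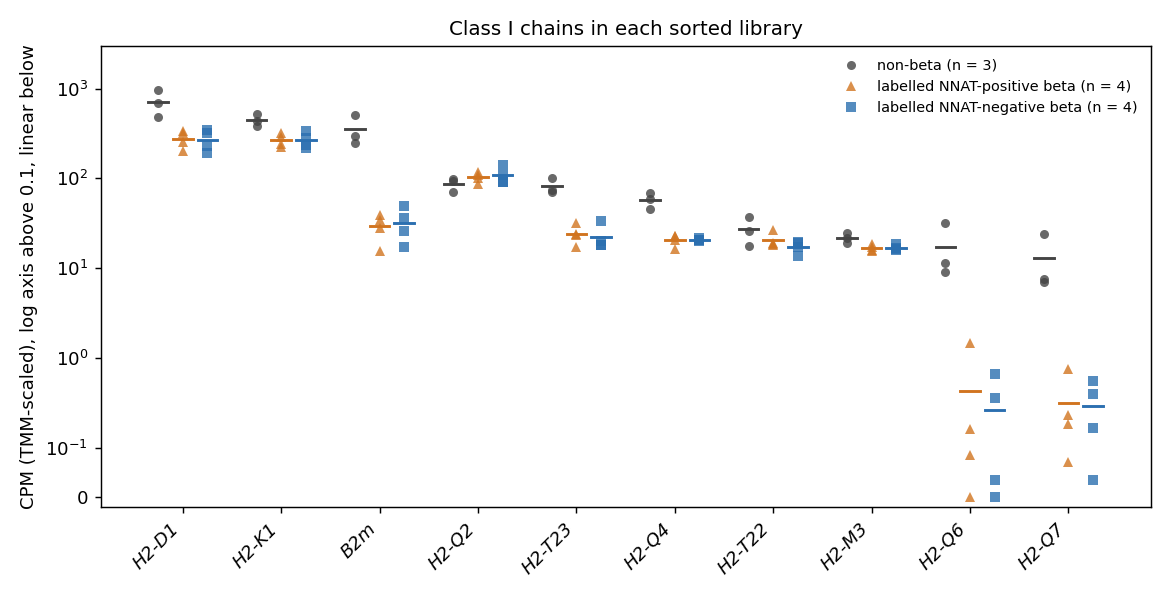
Levels of 10 class I genes (x axis) in every library, as TMM-scaled CPM (y axis, logarithmic above 0.1 and linear below). Each symbol is one library of the fraction given in the key and each bar the mean of its fraction. B2m lies between 15.6 and 49.3 CPM in the beta libraries and at 250 CPM or more in non-beta cells, whereas H2-Q2 overlaps between fractions.

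The other class I genes fell into several patterns. H2-Q2, a Q-region class I gene, overlapped between fractions. It was at 69.8, 99.0 and 93.5 CPM in non-beta cells, 108, 117, 102 and 86.7 CPM in the labelled NNAT-positive and 109, 143, 91.3 and 91.8 CPM in the labelled NNAT-negative libraries, a log2 difference of 0.38 ± 0.12 (adjusted p = 0.027) for the last and 0.32 ± 0.12 (adjusted p = 0.056) for the first beta fraction. H2-M3, which presents N-formyl peptides, was at 21.5, 19.1 and 24.4 CPM in non-beta cells and between 15.7 and 18.7 CPM in the 8 beta libraries. Its libraries did not overlap, but the log2 fold change of -0.36 ± 0.14 was not called (adjusted p = 0.065). H2-T22, a ligand of gamma delta T cells, was at 25.7, 37.6 and 17.7 CPM in non-beta cells and 13.6 to 26.8 CPM in beta cells, where it overlapped and was not called (log2 fold change -0.60 ± 0.18, adjusted p = 0.017, in the labelled NNAT-negative libraries).

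H2-T23, the gene of Qa-1, which presents leader peptides of other class I chains to NK and T cells, was called lower. It fell from 71.4, 101 and 74.8 CPM in non-beta cells to 17.4, 31.5, 23.8 and 23.3 CPM in the labelled NNAT-positive and 18.2, 33.6, 19.8 and 18.2 CPM in the labelled NNAT-negative libraries. The log2 fold change was -1.75 ± 0.12 (adjusted p = 1.9e-06) in the first and -1.87 ± 0.12 (adjusted p = 1.0e-06) in the second. H2-Q4 was also called lower, from 69.3, 46.0 and 59.2 CPM in non-beta cells to 16.2 to 22.8 CPM in beta cells (log2 fold change -1.50 ± 0.13, adjusted p = 7.9e-06, in the labelled NNAT-negative libraries).

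H2-Q6 and H2-Q7, of the Qa-2 family, were read mainly in non-beta libraries. H2-Q6 was at 31.6, 11.4 and 8.98 CPM there, at 0.0843, 0, 1.47 and 0.160 CPM in the labelled NNAT-positive and at 0.0341, 0, 0.666 and 0.355 CPM in the labelled NNAT-negative libraries. H2-Q7 was at 23.9, 7.49 and 7.01 CPM in non-beta cells and between 0.0341 and 0.758 CPM in beta cells. In the labelled NNAT-negative libraries their log2 fold changes were -7.20 ± 1.29 (adjusted p = 0.0010) and -4.95 ± 0.84 (adjusted p = 0.00075). Like H2-T24 and H2-M2, both passed the filter only with the non-beta libraries in the table. The lower calls of these 4 class I genes are therefore a description. H2-T24 had 8.07 to 10.7 CPM in non-beta libraries and reads in the beta libraries of mouse 3 only, at 0.105 and 0.166 CPM. H2-M2 had 2.36 to 4.63 CPM in non-beta cells and 0 counts in all 8 beta libraries, which makes it at least 182-fold lower in the labelled NNAT-positive and at least 154-fold lower in the labelled NNAT-negative fraction with 3 counts over the fraction as floor. Without mouse 1, the number of class I genes called lower in the labelled NNAT-positive libraries went from 8 to 5, and H2-Q6, H2-D1 and H2-M2 were the ones lost. H2-M2 was also lost without mouse 2 or mouse 3 and with DESeq2, in both comparisons.

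Of the remaining 11 tested class I genes edgeR called 0 in either comparison. DESeq2 called H2-Q5 and H2-T10 lower in the labelled NNAT-negative libraries, and edgeR called H2-T-ps in both comparisons once mouse 2 was left out. H2-Q1, H2-Q5 and H2-Q10 stayed below 2 CPM in every library and passed the filter only with the non-beta libraries in the table. H2-K2, H2-Bl, H2-T10 and H2-T-ps ranged up to 10.7 CPM and are described by mouse further on. Of the 14 class I genes that did not pass the filter, H2-M9 had 54 counts, all in non-beta libraries, H2-M11 had 11, H2-Q3 9, H2-M5 2 and H2-T3 1.

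Genes that supply class I with peptides were divided. Psmb8, Psmb9 and Psmb10 encode the catalytic subunits that replace the constitutive ones in the immunoproteasome. Psmb8 was at 88.4, 36.2 and 54.5 CPM in non-beta cells, at 15.8, 6.62, 11.6 and 8.56 CPM in the labelled NNAT-positive and at 10.5, 11.9, 11.6 and 9.53 CPM in the labelled NNAT-negative libraries. Its log2 fold change was -2.39 ± 0.24 (adjusted p = 1.8e-05) in the first and -2.27 ± 0.24 (adjusted p = 2.6e-05) in the second.

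Psmb9 went from 33.4, 16.0 and 22.4 CPM to 6.01, 2.33, 6.23 and 4.43 CPM in the labelled NNAT-positive and 9.11, 5.30, 7.54 and 4.64 CPM in the labelled NNAT-negative libraries. It was called lower in both, by -2.27 ± 0.23 (adjusted p = 2.3e-05) and -1.76 ± 0.22 (adjusted p = 9.9e-05) on the log2 scale. Psmb10 went from 34.1, 26.4 and 34.4 CPM to 4.61, 5.06, 10.1 and 7.69 CPM in the first and 5.87, 11.7, 8.74 and 7.90 CPM in the second, with log2 fold changes of -2.28 ± 0.29 (adjusted p = 9.6e-05) and -1.94 ± 0.28 (adjusted p = 0.00025). Their constitutive counterparts Psmb5, Psmb6 and Psmb7 were not called in either comparison. Per kb, Psmb8 over Psmb5 was 0.623 to 1.46 in non-beta and 0.0958 to 0.259 in beta libraries. The ratio of Psmb9 to Psmb6 was 0.145 to 0.223 against 0.0215 to 0.0653, and that of Psmb10 to Psmb7 was 0.610 to 0.782 against 0.113 to 0.257. The ranges of non-beta and beta libraries did not overlap for any of the 3 pairs.

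Psme1 and Psme2 encode the alpha and beta subunits of the PA28 proteasome activator, yet only the first was called. Psme1 was at 76.9, 59.7 and 78.9 CPM in non-beta cells, at 29.2, 26.8, 31.2 and 24.4 CPM in the labelled NNAT-positive and at 31.9, 26.5, 26.2 and 24.6 CPM in the labelled NNAT-negative libraries (log2 fold change -1.31 ± 0.10, adjusted p = 4.6e-06, and -1.34 ± 0.11, adjusted p = 3.7e-06). Psme2 was at 50.9, 41.4 and 53.6 CPM, then at 29.3, 30.7, 34.1 and 26.8 CPM, and at 32.5, 48.0, 31.7 and 31.5 CPM in the same order of fractions. Its log2 fold change was -0.64 ± 0.16 (adjusted p = 0.0088) in the labelled NNAT-positive libraries, under the 2-fold limit, and -0.39 ± 0.16 (adjusted p = 0.073) in the labelled NNAT-negative ones. Per kb, Psme1 over Psme2 was 1.15 to 1.21 in non-beta and 0.440 to 0.795 in beta libraries.

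The peptide transporter showed a like division. Tap1 was at 57.9, 35.6 and 33.5 CPM in non-beta cells, at 12.2, 10.6, 15.0 and 11.0 CPM in the labelled NNAT-positive and at 8.77, 9.96, 12.1 and 9.51 CPM in the labelled NNAT-negative libraries. It was called lower, by -1.75 ± 0.21 (adjusted p = 7.7e-05) and -2.02 ± 0.21 (adjusted p = 3.0e-05) on the log2 scale. Tap2, the partner of Tap1 in the transporter, was at 88.3, 63.1 and 81.7 CPM, then at 48.7, 46.4, 44.5 and 32.3 CPM, and at 44.7, 42.2, 44.9 and 27.9 CPM. Its log2 fold changes of -0.71 ± 0.10 (adjusted p = 0.00026) and -0.83 ± 0.10 (adjusted p = 8.7e-05) were under the 2-fold limit. Exons of Tap1 and Psmb9 overlap on opposite strands, as do exons of Tap2 and Psmb8 with Gm20496, and whether counting used the strand is not given in the sources used here.

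Peptide editing and trimming genes were not called. Tapbp encodes tapasin, which holds empty class I at the transporter. It was at 204, 178 and 197 CPM in non-beta cells, at 147, 149, 168 and 114 CPM in the labelled NNAT-positive and at 162, 167, 173 and 114 CPM in the labelled NNAT-negative libraries, with log2 fold changes of -0.31 ± 0.08 (adjusted p = 0.012) and -0.22 ± 0.08 (adjusted p = 0.049). Tapbpl, the gene of the tapasin-related editor TAPBPR, was the one loading gene with higher values in beta cells. Non-beta libraries had 33.8, 32.6 and 40.2 CPM, the labelled NNAT-positive ones 46.7, 38.4, 50.6 and 40.4 CPM and the labelled NNAT-negative ones 40.9, 52.1, 54.2 and 44.1 CPM. The log2 difference was 0.35 ± 0.11 (adjusted p = 0.030) in the first and 0.47 ± 0.11 (adjusted p = 0.0068) in the second, both under 2-fold. Erap1, the aminopeptidase that trims peptides in the endoplasmic reticulum, overlapped between fractions, with 104, 109 and 120 CPM in non-beta and 81.4 to 116 CPM in beta cells (log2 fold change -0.13 ± 0.08, adjusted p = 0.21, in the labelled NNAT-negative libraries).

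Nlrc5, the transactivator of class I genes, was low everywhere. It had 7.76, 2.51 and 3.41 CPM in non-beta cells, 0, 0.216, 0.890 and 0.525 CPM in the labelled NNAT-positive and 0.0341, 0.609, 0.0555 and 0.273 CPM in the labelled NNAT-negative libraries. The groups did not overlap, which held for 28.9% of all tested genes with lower values in the labelled NNAT-negative and 28.8% in the labelled NNAT-positive libraries. With log2 fold changes of -4.11 ± 1.41 (adjusted p = 0.035) and -4.82 ± 1.43 (adjusted p = 0.018) it was not called by edgeR, while DESeq2 called it lower in both (adjusted p = 0.00059 and 7.6e-05). Without the filter on low counts, edgeR also called Nlrc5 lower in the labelled NNAT-negative libraries.

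**Figure D2:**
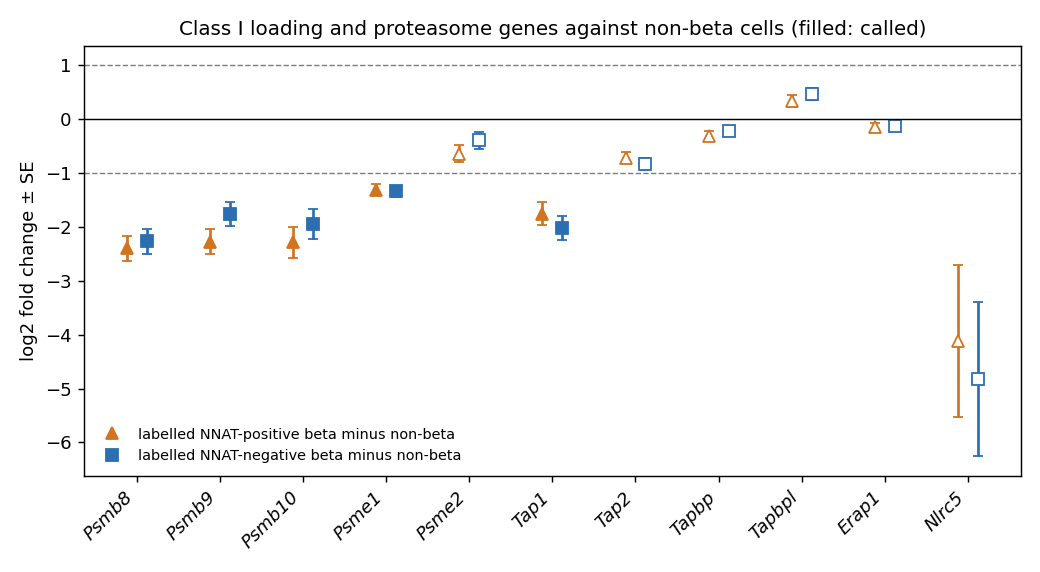
Log2 fold change (y axis, with SE) against non-beta cells for the 11 loading and proteasome genes (x axis), with triangles for the labelled NNAT-positive and squares for the labelled NNAT-negative beta libraries. Filled symbols were called and dashed lines mark a 2-fold change. The 3 immunoproteasome subunits, Psme1 and Tap1 are filled, while Psme2, Tap2, Tapbp, Tapbpl and Erap1 lie within 2-fold.

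Class II genes had few reads in beta cells. All 12 were tested and 11 were called lower in each beta fraction, beside 15.5% and 17.1% of all tested genes in the labelled NNAT-positive and NNAT-negative libraries. The beta and non-beta libraries overlapped for 0 of the 12, where 28.8% and 28.9% of all tested genes lay wholly lower. Only 5 of the 12 passed the filter in the beta libraries alone (Cd74, H2-Aa, H2-Ab1, H2-Eb1 and H2-DMa), and all 5 were called. The share called among all genes that passed in these libraries alone was not computed. The other 7 passed because they are high in non-beta cells, so their calls are a description. Cd74, the invariant chain, was the most abundant at 1553, 715 and 939 CPM in non-beta cells. The labelled NNAT-positive libraries had 11.3, 2.54, 3.45 and 1.07 CPM and the labelled NNAT-negative ones 0, 2.86, 5.33 and 1.39 CPM. Its log2 fold change was -7.73 ± 0.86 (adjusted p = 4.3e-05) in the first and -8.30 ± 0.91 (adjusted p = 3.7e-05) in the second.

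The chains of the classical class II molecules followed. H2-Aa, the alpha chain of I-A, was at 741, 290 and 421 CPM in non-beta cells, at 4.38, 0.360, 1.67 and 0.662 CPM in the labelled NNAT-positive and at 0.955, 0.0304, 1.78 and 0.492 CPM in the labelled NNAT-negative libraries (log2 fold change -8.11 ± 0.49, adjusted p = 7.6e-07, and -9.05 ± 0.52, adjusted p = 4.8e-07). H2-Ab1, its beta chain, was at 585, 270 and 338 CPM, then at 3.65, 1.27, 0.968 and 0.320 CPM, and at 0.512, 0, 1.72 and 0.301 CPM. H2-Eb1, the beta chain of I-E, was at 353, 283 and 218 CPM, then at 1.38, 0.744, 0.157 and 0.616 CPM, and at 0.887, 0, 2.25 and 0.683 CPM. In the labelled NNAT-negative libraries H2-Ab1 changed by -8.90 ± 0.59 (adjusted p = 1.1e-06) and H2-Eb1 by -8.09 ± 0.63 (adjusted p = 3.6e-06) on the log2 scale. H2-Ea, the partner of H2-Eb1, is known to lack its promoter in the C57BL/6 strain. It had 3.53, 0.344 and 1.16 CPM in non-beta and 0 counts in beta libraries, and was the one class II gene not called (adjusted p = 0.019 in both comparisons).

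Ciita, the regulator of the class, was at 34.6, 17.2 and 13.3 CPM in non-beta cells, at 0.197, 0, 0.0785 and 0 CPM in the labelled NNAT-positive and at 0.102, 0, 0 and 0.137 CPM in the labelled NNAT-negative libraries. The beta values amount to 10 and 8 counts over each fraction, and the log2 fold change was -8.48 ± 0.79 (adjusted p = 1.3e-05) and -8.56 ± 0.86 (adjusted p = 2.0e-05). The peptide editor H2-DM and its inhibitor H2-DO were likewise near the floor, with a single exception. H2-DMb1 had 18.9, 11.4 and 11.6 CPM in non-beta and at most 0.222 CPM in beta libraries, and H2-DMb2 3.18 to 10.5 CPM against at most 0.131 CPM. H2-Oa, with 4.74, 2.54 and 1.07 CPM in non-beta cells, had 0 counts in all 8 beta libraries, at least 156-fold lower in the labelled NNAT-positive and at least 132-fold lower in the labelled NNAT-negative fraction. H2-Ob, with 14.1, 6.49 and 2.69 CPM in non-beta cells, had 1 count in the labelled NNAT-positive fraction, a 1311-fold ratio with a 95% counting interval from 235 to 51842, and 0 in the other, at least 370-fold lower. H2-Eb2 also had 0 counts in beta libraries beside 0.672 to 6.60 CPM in non-beta ones. H2-Oa and H2-Eb2 were no longer called without mouse 1, 2 or 3, and H2-DMb2 without mouse 1 in both comparisons and without mouse 2 in the labelled NNAT-positive one.

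The exception was H2-DMa, the alpha chain of H2-DM. It was at 41.9, 22.3 and 18.5 CPM in non-beta cells, at 2.67, 3.17, 3.25 and 3.17 CPM in the labelled NNAT-positive and at 7.00, 3.84, 3.52 and 3.39 CPM in the labelled NNAT-negative libraries. It was called lower, by -3.01 ± 0.28 (adjusted p = 1.3e-05) and -2.57 ± 0.27 (adjusted p = 2.7e-05), but the beta level was 10.7% and 15.1% of the pooled non-beta level, where Cd74 kept 0.390% and 0.226%. Its partner H2-DMb1 kept 0.394% and 0.414%. Exons of H2-DMa overlap those of Brd2 on the opposite strand. The part of Brd2 reads in the H2-DMa counts was not tested.

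Summed over the 12 genes, class II was at 1623 to 3367 CPM in non-beta libraries and 5.91 to 23.7 CPM in beta libraries, which is 0.255 to 1.02% of the mean non-beta level. The 6 pan-leukocyte markers were at 0.371 to 2.12% of theirs, the 7 dendritic cell markers at 0 to 1.27% and the 8 T and NK cell markers at 0 to 5.41%. Of the dendritic cell markers, 1 had 0 counts in all labelled NNAT-positive and 4 in all labelled NNAT-negative libraries. The macrophage list stood higher, at 5.45 to 9.04%, through C1qa. The 5 B cell markers were at 24.4 to 35.6% in the labelled NNAT-positive and 5.66 to 15.7% in the labelled NNAT-negative libraries, where Cd79a had means of 8.84 and 2.98 CPM beside 6.69 CPM in non-beta cells while Cd79b had means of 0.0140 and 0.0273 beside 7.32 CPM. The part of leukocyte RNA in the class II values was not tested.

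**Figure D3:**
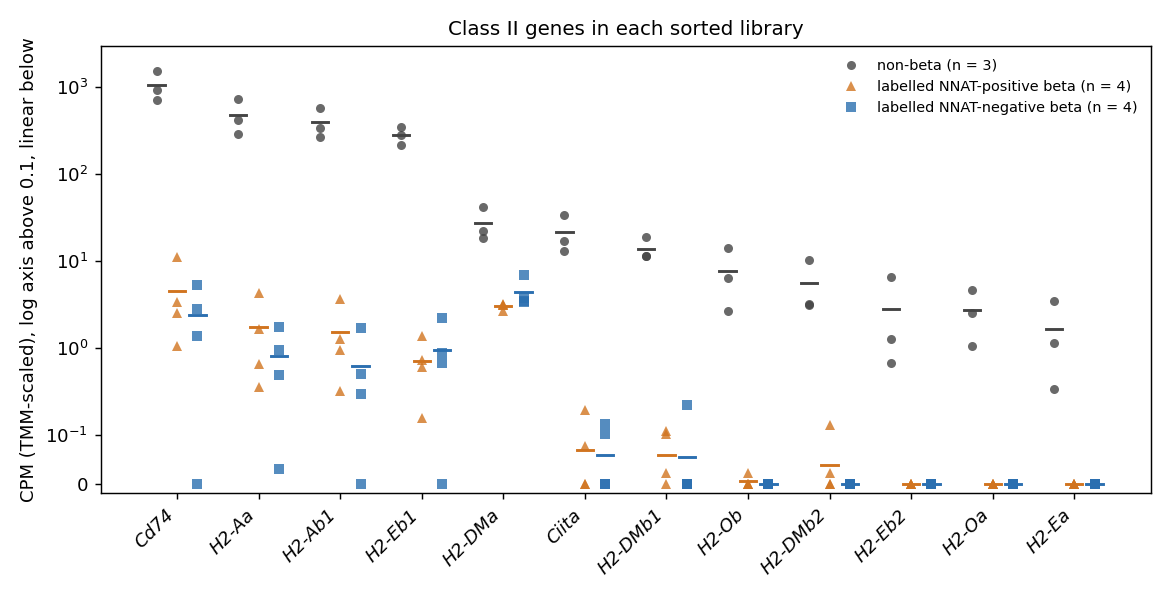
Levels of the 12 class II genes (x axis) in every library, as TMM-scaled CPM (y axis, logarithmic above 0.1 and linear below). Symbols are libraries and bars the mean of each fraction. For every gene the non-beta libraries lie above all beta libraries, and among the genes in the lower range of levels only H2-DMa keeps 2.67 CPM or more in each beta library.

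Calhm6, a channel protein gene outside both classes, was at 1.64, 0.291 and 0.564 CPM in non-beta cells, at 0.140, 0, 0.0523 and 0.0457 CPM in the labelled NNAT-positive and at 0.580, 0, 0.0555 and 0.0273 CPM in the labelled NNAT-negative libraries. It was not called by edgeR (adjusted p = 0.037 and 0.059), while DESeq2 called it lower in the labelled NNAT-positive libraries (adjusted p = 0.0033). Calhm6 passed the filter only with the non-beta libraries in the table, so its lower level is a description. H2-Ke6, which lies in the region by name but encodes a steroid dehydrogenase, stayed at or below 0.355 CPM in every library. Of its 1643 exonic bases, 1419 overlap exons of Gm20427 on the same strand. The part of this overlap in the low counts was not tested.

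On chromosome 17, 34 of the tested members could be set in map order. Genes of unlike change lay side by side. Psmb9, Tap1, Psmb8 and Tap2 lie between H2-DMb1 and H2-Ob, and their log2 fold changes of -1.76, -2.02, -2.27 and -0.83 in the labelled NNAT-negative libraries stood beside -7.78 for H2-DMb1 and -8.90 for H2-Ab1, the next member beyond H2-Ob. Among the class I genes, H2-D1, H2-Q2 and H2-Q4 follow one another with few members between and had log2 fold changes of -1.24, 0.38 and -1.50.

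**Figure D4:**
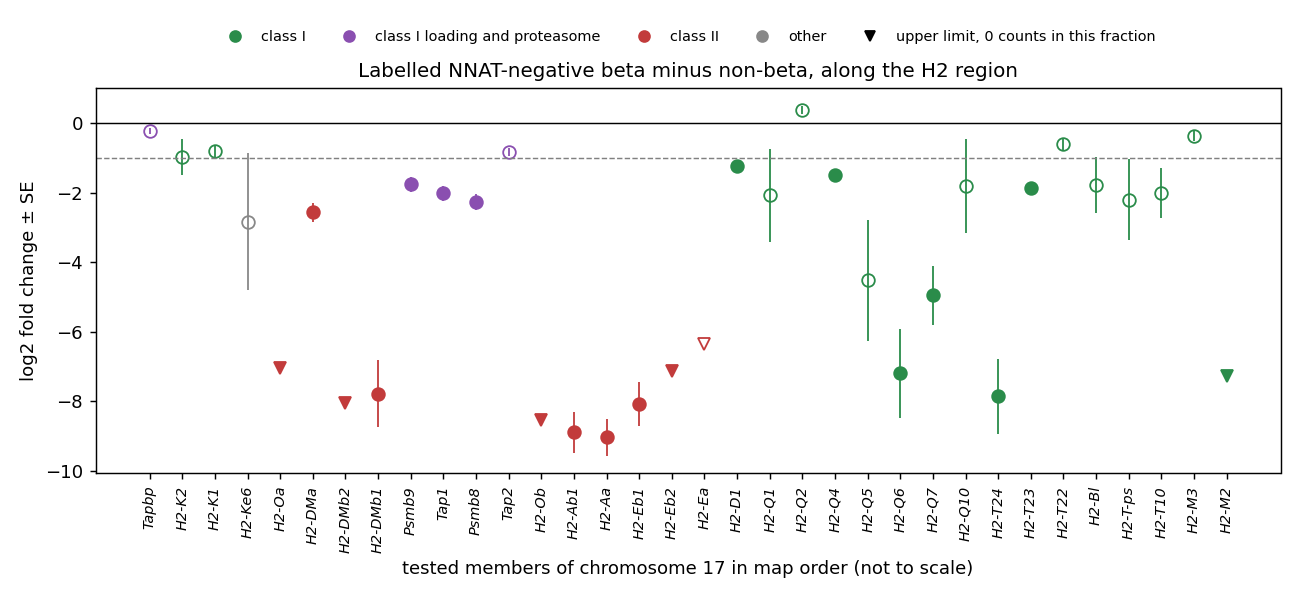
Log2 fold change of the labelled NNAT-negative beta libraries against non-beta cells (y axis, with SE) for the 34 tested members of chromosome 17 in map order (x axis, not to scale). Filled symbols were called, the dashed line marks 2-fold lower, and triangles are upper limits for genes with 0 counts in that fraction. H2-DMa, at -2.57, is the highest of the class II genes, and the 4 peptide supply genes among them lie at -2.27 or above.

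Between the beta fractions no member was called. With the labelled NNAT-positive set against the labelled NNAT-negative libraries, edgeR called 0 of the 44 tested members higher and 0 lower, beside 0.0459% and 0% of all tested genes. DESeq2 called 0 members as well, and 1 member, Psmb9, had an unadjusted p below 0.05. Over all genes, the paper reported more differences between these fractions with DESeq2 at the same limits than edgeR called here. Psmb9 had the lower value in the labelled NNAT-positive library in each of the 4 mice, with a log2 difference of -0.51 ± 0.21 (adjusted p = 0.84). Tap1 had the higher value there in each of the 4 (0.27 ± 0.19, adjusted p = 0.92) although it starts beside Psmb9. The same held for H2-T10 (0.96 ± 0.66, adjusted p = 0.91). The share of all tested genes with one sign in all 4 mice was not computed, so these signs are a description. H2-DMa was the one member whose fractions did not overlap, at 2.67 to 3.25 CPM in the labelled NNAT-positive and 3.39 to 7.00 CPM in the labelled NNAT-negative libraries, which held for 0.333% of all tested genes in that direction, and it was not called (-0.44 ± 0.25, adjusted p = 0.89).

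For abundant members the 95% interval of the difference, from its SE, was narrow. On the log2 scale it was -0.24 to 0.29 for H2-K1, -0.15 to 0.26 for H2-D1, -0.35 to 0.18 for B2m, -0.10 to 0.33 for H2-T23 and -0.16 to 0.22 for Psme1, so a 2-fold difference in either direction lay outside them. For Cd74 it was -0.94 to 2.09 and for H2-Aa -0.11 to 1.97. A level 2-fold higher in the labelled NNAT-positive libraries lay inside both intervals. The lower end for Cd74 was too close to a 2-fold decrease to exclude one. The signs of H2-K1, B2m, H2-T23, H2-Q4 and Psmb8 in this comparison depend on the scaling or on single mice.

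Values of several class I genes stood apart by mouse, a pattern chosen after the values were seen. H2-K2 was at 8.35 and 7.73 CPM in the labelled NNAT-positive and NNAT-negative libraries of mouse 4 and at 0.700 to 1.54 CPM in the beta libraries of the other mice, while the non-beta library of mouse 1 had 4.38 CPM. H2-Bl, annotated as a polymorphic pseudogene, was at 9.96, 3.06 and 2.83 CPM in the 3 libraries of mouse 1 and at 6.72, 2.96 and 2.22 CPM in those of mouse 3. In mouse 2 it was at 0.212, 0.576 and 0 CPM, and in the beta libraries of mouse 4 it had 0 counts. H2-T10 ran in the same way, with 2.35 to 10.7 CPM in mice 1 and 3, 0.0304 to 1.64 CPM in mouse 2 and 0.382 to 0.388 CPM in mouse 4. H2-T-ps had 0.921 to 9.16 CPM in mice 1 and 3, 0 to 0.408 CPM in mouse 2 and 0.114 to 0.137 CPM in mouse 4.

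The ratio of H2-D1 to H2-K1, each per kb, followed the mice too. It was 2.08, 1.65 and 1.81 in the non-beta, labelled NNAT-positive and labelled NNAT-negative libraries of mouse 1 and 2.07, 1.57 and 1.55 in those of mouse 3. In mouse 2 it was 1.27, 0.898 and 0.776, and in mouse 4 it was 0.796 and 0.782 in the beta fractions. In beta cells the ratio was thus at most 0.898 in mice 2 and 4 and at least 1.55 in mice 1 and 3. An F test of the mouse terms over all genes, added after these values were seen, called B2m (adjusted p = 0.0033) and H2-D1 (adjusted p = 0.0085) at an adjusted p below 0.01, 2 of 44 tested members beside 4.08% of all tested genes. H2-Bl (adjusted p = 0.011), H2-K2 (adjusted p = 0.014), H2-T10 (adjusted p = 0.067), H2-T-ps (adjusted p = 0.12) and H2-K1 (adjusted p = 0.32) did not pass. B2m was lowest in the beta libraries of mouse 4. In these libraries Ins1 and Ins2 took 18.0% and 17.8% of counts, where each of the other beta libraries had more, up to 34.4%, and 21731 and 20434 genes had counts, beside 15450 to 18129. The part of these differences in the values by mouse was not tested. Without mouse 4, 0 members and 14 of all tested genes had an adjusted p below 0.01, so these calls need that mouse.

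**Figure D5:**
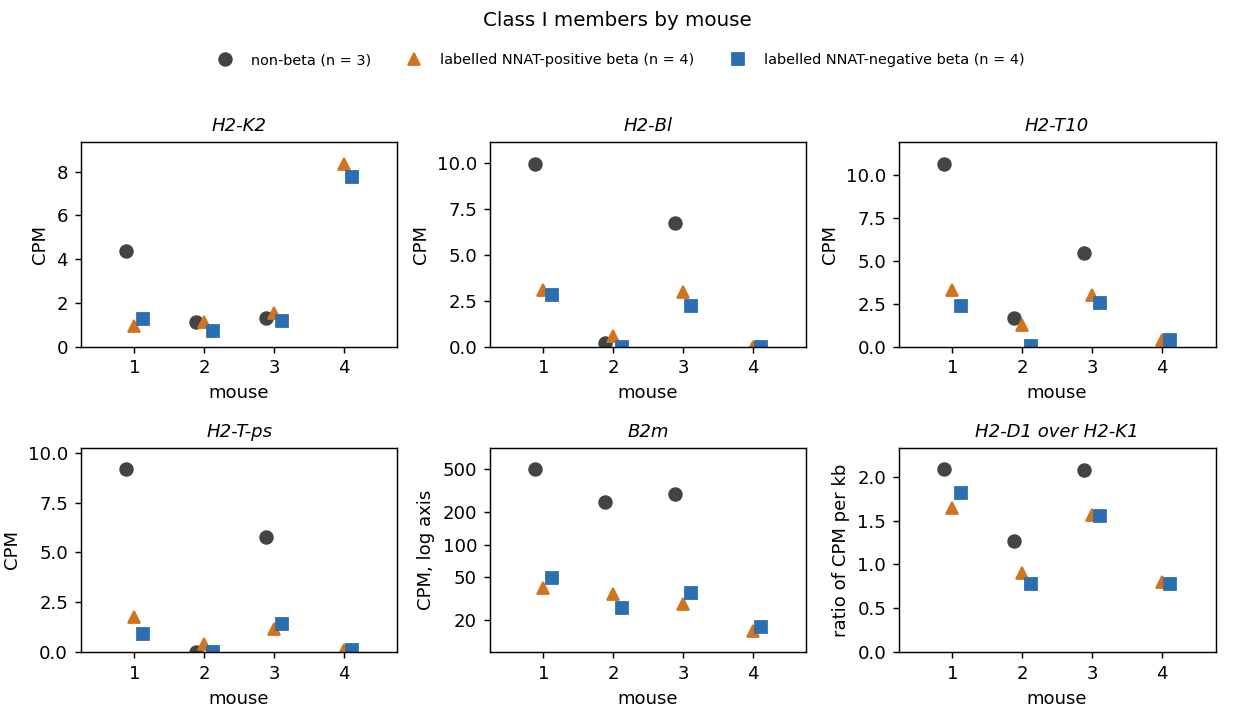
Levels of 5 class I genes and the ratio of H2-D1 to H2-K1 (y axes, CPM or the ratio of CPM per kb, with a log axis for B2m) by mouse (x axis). Each symbol is one library of the fraction in the key, and mouse 4 has no non-beta library. H2-K2 is highest in mouse 4 at 7.73 and 8.35 CPM, and H2-Bl, H2-T10, H2-T-ps and the ratio are higher in mice 1 and 3 than in mice 2 and 4.

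Genes around the members were read from 8 lists chosen with earlier results in view. Which genes of these lists passed the filter only with the non-beta libraries in the table was not checked. For any that did, a lower call follows from the filter and is a description. In the labelled NNAT-negative libraries, where 17.1% of all tested genes were called lower and 6.18% higher, 20 of 24 interferon-stimulated genes were called lower and 0 higher (median log2 fold change -2.76 beside -0.13 over all tested genes), among them Gbp2 (-5.93 ± 0.38), Bst2 (-3.27 ± 0.23) and Gbp7 (-2.13 ± 0.18). Of 16 interferon receptor and signalling genes, 8 were called lower, including Ifngr1 (-2.42 ± 0.19), a chain of the interferon gamma receptor, Irf9 (-1.76 ± 0.16) and the feedback inhibitor Socs3 (-2.77 ± 0.14), and 0 higher. Of 7 tested class I-like genes outside the H2 names, 5 were called lower, and the neonatal Fc receptor gene Fcgrt led them at -10.44 ± 0.59.

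Of 12 tested genes of class II processing and co-stimulation, 6 were called lower, among them the cathepsins Ctsh (-4.74 ± 0.31) and Ctss (-8.78 ± 0.72) and the endopeptidase Lgmn (-1.97 ± 0.16). The 8 genes of the class II transcription machinery other than Ciita held 0 called in this comparison, with a median of -0.23. Of 10 genes listed for class I folding, peptide trimming and export from the endoplasmic reticulum, 2 were called higher, Uggt1 (1.67 ± 0.09) and Sar1b (1.21 ± 0.08), 0 lower and 8 not at all. Of 5 constitutive proteasome counterparts 1 was called, the activator Psme4, which was higher (1.37 ± 0.11), and of 7 core alpha subunits 0 were called. Between the beta fractions 0 genes of these 8 lists were called.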

How the data were processed

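The authors aligned poly(A) reads to mm10 with STAR 2.7.1a, counted them per gene on a gencode annotation and deposited whole-number counts without normalisation, used here as raw counts. Their own comparison used DESeq2 1.32.0. The strand setting of the counting is not given in the sources used here. Rows without a symbol but with a gene ID, 202 in all, were kept and held 0.0855 to 0.847% of counts. Fits used R 4.3.3 with edgeR 4.0.16 (TMM, filterByExpr by fraction, quasi-likelihood F test, mouse as a block, all 11 libraries), and SEs were obtained by dividing each log2 change by the root of its F statistic. The block takes the replicate number as the mouse, since the methods draw each replicate from an individual animal. Deviations of same-mouse beta libraries correlated at 0.182 to 0.658, the highest in mouse 4, and those of same-mouse beta and non-beta libraries at 0.0321 to 0.125. Between different mice the ranges were -0.322 to 0.0931 and -0.105 to 0.0683. For beta with non-beta libraries the same-mouse and different-mouse ranges thus overlapped. Exon lengths, coordinates and overlaps came from gencode M21, and levels per kb divide CPM by the summed exon length. Members were found by symbol. Values in every library were given for 30 members and ranges for other tested ones, and up to 3 called genes with the smallest p were named per pathway list and direction. Members and lists were chosen with earlier results of these data known. In simulated counts for the comparison of the beta fractions (16532 genes), edgeR recovered 73 of 100 genes changed 2.5-fold and 86 of 100 changed 4-fold, with 1 unchanged gene called, and DESeq2 1.42.0 recovered 80 and 94 with 6. The changed genes were drawn from those with a mean above 1 CPM in beta libraries, and no mouse effect was simulated. The rates therefore do not cover members below that level, among them most class II genes. Bounds used 3 counts over a fraction, and exact binomial intervals cover counting error only. Alternatives changed the tool, scaling, filter, block, thresholds, abundant hormones, libraries in the fit and each mouse. Bisulphite, proteomic, imaging and single-cell data were not analysed here.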

Additional observations from a re-analysis of the deposited data

Results flagged for a closer look

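In groups of 4 beta libraries, a library was marked where its gap to the next one was too large a share of the group's range by Dixon's 95% critical value, which chance gives in about 1 in 20 groups. Of 77 groups of member values tested, 15 were marked, many of them at a few counts. H2-K2 was marked in mouse 4 in both fractions, at 8.35 CPM (366 counts) in the labelled NNAT-positive library and 7.73 CPM (283 counts) in the labelled NNAT-negative one. Mouse 2 was marked for H2-T22 at 26.8 CPM in the labelled NNAT-positive library, and for H2-T23 at 33.6 CPM and Psme2 at 48.0 CPM in the labelled NNAT-negative one. Mouse 4 stood low for Tap2 at 27.9 CPM in its labelled NNAT-negative library, where the others had 42.2 to 44.9 CPM. H2-DMa was marked in mouse 1 on opposite sides, at 2.67 CPM in the labelled NNAT-positive and 7.00 CPM in the labelled NNAT-negative library.

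The remaining marks were at low counts. In mouse 3 they were H2-Q6 at 1.47 CPM (56 counts) and H2-T24 at 0.105 CPM in the labelled NNAT-positive library, and H2-T24 at 0.166 CPM and H2-DMb1 at 0.222 CPM in the labelled NNAT-negative one. In the labelled NNAT-negative library of mouse 1 they were H2-Q5 at 0.444 CPM and Calhm6 at 0.580 CPM, and in that of mouse 4 H2-Ke6 at 0.355 CPM. No cause of these values was tested.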

How the results depend on the processing

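The numbers of members called against non-beta cells kept their direction under all alternatives run. With one mouse left out they ran from 18 to 24 in the labelled NNAT-positive and from 19 to 24 in the labelled NNAT-negative libraries, and from 34 to 40 for the genes of the 8 lists. Between the beta fractions the number stayed at 0. The fit without the replicate block called 25 members lower in each comparison against 24 with it, gaining H2-Ea in both, and changed no other call among the members. Without the filter, edgeR gained H2-Ea in both comparisons and Nlrc5 in the labelled NNAT-negative one. H2-Eb2, H2-M2 and H2-Oa, which have 0 counts in beta libraries, were lost when mouse 1, 2 or 3 was left out and with DESeq2. DESeq2 also lost H2-Ob, and it gained Nlrc5 in both comparisons, Calhm6 in the labelled NNAT-positive and H2-Q5 and H2-T10 in the labelled NNAT-negative libraries. Between the beta fractions the log2 difference of H2-K1 turned to -0.0158 with DESeq2 and with RLE size factors, -0.0178 without the abundant hormones, -0.0160 with the beta libraries alone and -0.0126 without a filter. With one mouse left out it ran from -0.0296 to 0.0524 for H2-K1, -0.27 to 0.00575 for B2m, -0.00681 to 0.19 for H2-T23, -0.11 to 0.0754 for H2-Q4 and -0.33 to 0.13 for Psmb8. The number of members with a mouse effect, 2 as reported, was 1 with RLE size factors, 6 without a filter, 5 in the beta libraries only and 0 to 3 with one mouse left out, and the cause was not tested. H2-K1 was called lower in the labelled NNAT-negative libraries without mouse 2, at -1.03 on the log2 scale. Levels on plain library totals moved by less than 1 SD. Counts at 0 to 10 in a fraction limit what can be said of most class II genes within beta cells.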
